A study of Mus musculus with 12 samples.

Results

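RNA bound to the tagged ribosomes of astrocytes was compared with the RNA of the cortical tissue lysate it was drawn from. The comparison takes 6 of the 12 libraries of the series, chosen by their titles: 3 immunoprecipitates (cortex TRAP) and 3 inputs (cortex input). Every library came from C57/Bl6 mice at postnatal day 21 carrying Aldh1L1::RPL10a-eGFP, a transgene in which the Aldh1l1 promoter drives Rpl10a, a protein of the large ribosomal subunit, fused to a green fluorescent protein. The inputs therefore carry the tag too, and it marks whichever cells use that promoter. Per the labels, both groups were exposed to cycloheximide at 1 ug/mL, a drug that stalls translating ribosomes, and to TTX, a blocker of sodium channels, at 1 mM. The labels give every library the cell type astrocytes, inputs included, and a single extract protocol in which cortex and hippocampus were homogenized, so what the cortex inputs are rests on their source names. They do not say whether replicates were separate animals, so p-values measure only the spread between these libraries, which may be technical. The remaining 6 libraries, from a synaptoneurosome layer and its immunoprecipitate, enter no comparison here, but took part in the filter on low counts, the scaling and the estimate of that spread.

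Translating ribosome affinity purification (TRAP) pulls down ribosomes by their tag and keeps the messages they carry. A message used by the tagged cells gains against the lysate, and a message used by other cells loses. Astrocytes are known for clearing glutamate and GABA, buffering potassium, exchanging amino acids, lipids and ions with neurons and vessels, and secreting proteins that act on synapses. Their formation is known to draw on Notch, BMP, Hedgehog and FGF signals, on repressors of the Id, Hes and Hey families, and on factors such as Sox9 and nuclear factor I. All changes below are log2 fold changes of cortex TRAP over cortex input ± SE, and levels are normalized CPM (counts scaled to a common library total, with TMM factors). A gene rose or fell where its edgeR quasi-likelihood test passed an adjusted p of 0.05. More tagged cells and more message per tagged cell cannot be told apart in these bulk samples.

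Gene counts per library were 10368296 to 12168436 in cortex input and 4918113 to 7858437 in cortex TRAP. Without the genes of the mitochondrial chromosome, the 6 libraries held 4864787 to 7777763 counts. Checked against the label, the defining markers of astrocytes took 0.745% to 0.842% of these nuclear counts in cortex input and 5.99% to 9.32% in cortex TRAP, and 12 of 12 rose. Neuron markers took 2.04% to 2.28% and 0.24% to 0.35%, and 12 of 12 fell. No marker of myelinating oligodendrocytes, microglia or blood rose (edgeR, with 0 at an unadjusted p under 0.05 and 0 by DESeq2). Of those tested, 7 of 8, 5 of 8 and 1 of 4 fell. The microglial count was 3 with both groups fitted alone or without cortex input replicate 1 or 2. The count for blood was 2 with both groups fitted alone or corrected for transcript length, and 0 without cortex input replicate 1. Of 6 markers of oligodendrocyte precursors, 5 fell, but 2 did corrected for transcript length or without cortex input replicate 2. None of the 6 rose by edgeR, with 1 at an unadjusted p under 0.05 and 1 by DESeq2. Among them C1ql1 had a change of 2.26 ± 0.93 and was not called. Markers of endothelial cells took 0.000231% to 0.000827% in cortex input and 0.000167% to 0.000188% in cortex TRAP. Cldn5 was at 0 in cortex input, and Tek and Kdr were at 0 in cortex TRAP. Of the 8 endothelial markers, 3 passed the filter on low counts and none was called (edgeR, with 0 at an unadjusted p under 0.05 and 0 by DESeq2). Markers of mural cells took 0.00601% to 0.00909% in cortex input and 0.00424% to 0.00795% in cortex TRAP. Markers of the ependyma and choroid plexus took 0.00684% to 0.0098% of nuclear counts in cortex input and 0.0302% to 0.0919% in cortex TRAP. Among them Ttr, a carrier of thyroid hormone and retinol made by the choroid plexus, was the member that rose by edgeR, and the marker Tmem212 was at 0 in both groups.

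The promoter that drives the tag and the promoters of 3 genes of the Notch pathway are shown because the tag decides which ribosomes were taken and because Hes5, Lfng and Nrarp rose. Each line gives the 250 bases before the RefSeq start site on GRCm38.p6, 5′ to 3′ on the strand of the gene. Capitals mark TGGGAA or its reverse complement TTCCCA, the core letters that the Notch nuclear partner Rbpj is known to bind, which lie in 21.6% of all 32851 promoters of the same length. A match is a run of letters in this window and was not tested for binding. Hes1, Heyl and Hey1 had no entry.
Aldh1l1 (chr6:90550543-90550792, plus strand): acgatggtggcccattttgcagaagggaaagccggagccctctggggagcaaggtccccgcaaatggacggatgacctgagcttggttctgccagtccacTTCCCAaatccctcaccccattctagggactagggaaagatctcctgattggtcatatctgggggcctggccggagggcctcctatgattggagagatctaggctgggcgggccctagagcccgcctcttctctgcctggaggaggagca
Hes5 (chr4:154960673-154960922, plus strand): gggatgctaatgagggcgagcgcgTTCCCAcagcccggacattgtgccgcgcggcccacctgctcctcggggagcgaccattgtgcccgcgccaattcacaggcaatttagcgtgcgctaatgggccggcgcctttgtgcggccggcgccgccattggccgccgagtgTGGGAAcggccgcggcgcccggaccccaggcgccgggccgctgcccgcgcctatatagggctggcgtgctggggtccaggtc
Lfng (chr5:140607091-140607340, plus strand): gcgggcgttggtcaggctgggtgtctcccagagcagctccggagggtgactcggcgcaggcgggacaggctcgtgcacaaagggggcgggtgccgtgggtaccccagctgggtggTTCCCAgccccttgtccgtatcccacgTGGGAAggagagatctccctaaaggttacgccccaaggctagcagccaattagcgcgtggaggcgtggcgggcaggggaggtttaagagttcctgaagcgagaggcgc
Nrarp (chr2:25180508-25180757, plus strand): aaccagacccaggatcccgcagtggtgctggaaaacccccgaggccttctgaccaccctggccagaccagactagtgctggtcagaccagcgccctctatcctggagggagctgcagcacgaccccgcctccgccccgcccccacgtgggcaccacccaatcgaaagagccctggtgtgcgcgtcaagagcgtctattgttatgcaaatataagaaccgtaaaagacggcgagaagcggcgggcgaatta
Counting back from the start site, the first base of a match lies at -150 for Aldh1l1, at -226 and -82 for Hes5, and at -135 and -108 for Lfng, a glycosyltransferase that modifies Notch receptors. Nrarp, a Notch target that feeds back on the pathway, has no match in the window.

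Of 41388 gene identifiers, 13364 passed the filter on low counts and were tested, and 4737 were called (35.4%). Those that rose numbered 2127 (15.9%) and those that fell 2610 (19.5%), and the median log2 change over all genes was 0.05. Rises outnumbered falls among carriers of lipids, hormones and metals (11 of 18 against 0), receptors of the Notch, Wnt, Hedgehog, BMP and TGF-beta pathways (17 of 32 against 5), Id, Hes and Hey repressors (9 of 10 against 0) and Sox and other HMG-box factors (12 of 21 against 1). Falls outnumbered rises among ion channels (115 of 194 against 22), neuropeptides and granins (16 of 26 against 2), guidance ligands (19 of 35 against 4) and calcium exchangers (5 of 7 against 1). The changes were large: 1352 genes rose and 1706 fell by over 4-fold, and 393 and 443 by over 16-fold. The libraries of both groups did not overlap for 2077 of the 2127 genes that rose and 2582 of the 2610 that fell. The share without overlap over all genes tested was not counted. Here and below, the lack of overlap describes the libraries and is no evidence apart from the test. Within a group, the Spearman correlation across genes was 0.9314 to 0.9577 for cortex input and 0.8927 to 0.8984 for cortex TRAP, against 0.6583 to 0.7075 between groups. Called genes had 0 counts in all cortex TRAP libraries in 101 cases and in all cortex input libraries in 30. Such a gene passed the filter only through libraries of other groups. The share at 0 over all genes tested was not counted, so the counts are no result about either group. The 101 include transcripts of the mitochondrial chromosome, such as mt-Co2.

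**Figure D1:**
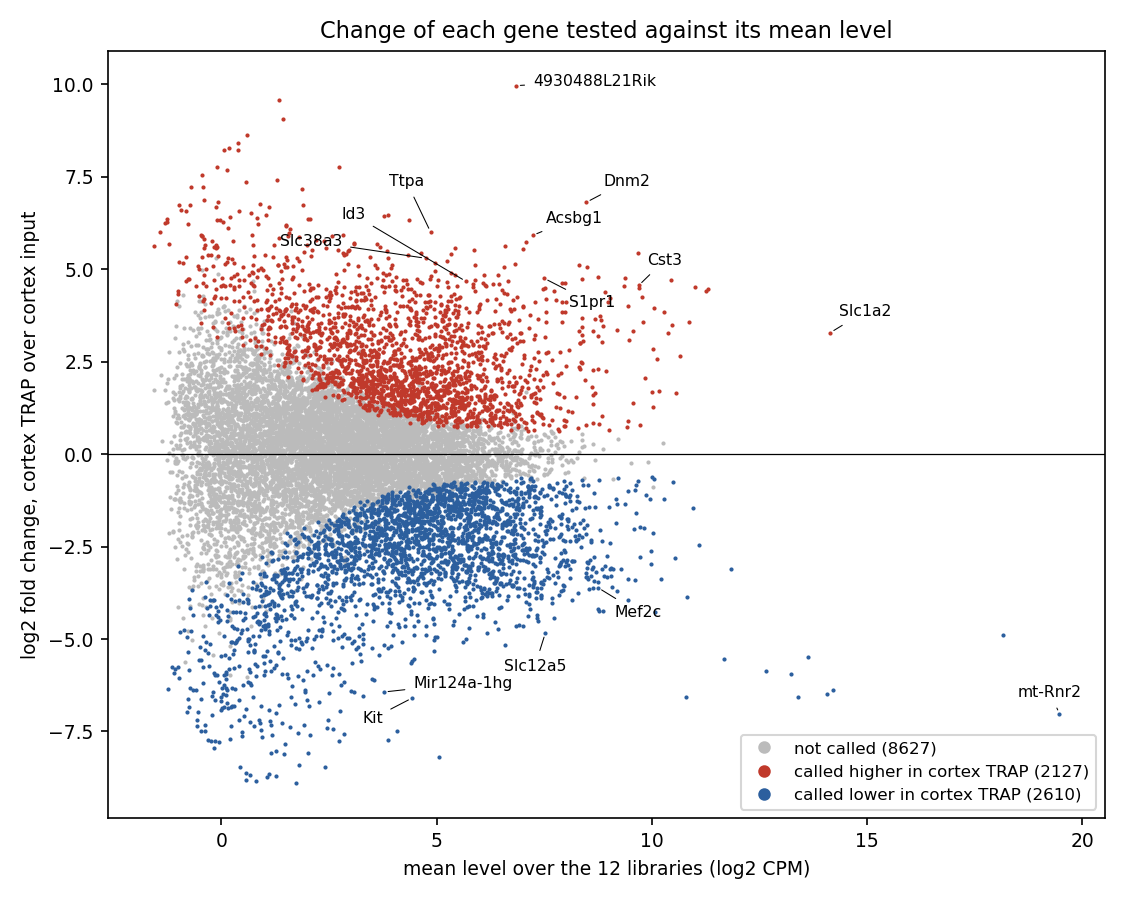
Log2 fold change of cortex TRAP over cortex input for each of the 13364 genes tested (vertical axis) against the mean log2 CPM (horizontal axis), each point a gene. The 2127 genes that rose are red, the 2610 that fell are blue, the rest grey, and labelled genes are described in the text. The largest changes lie at low and middle levels, and mitochondrial transcripts such as mt-Rnr2 fell at the highest levels.

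The largest rises at a mean of 3 log2 CPM or more included enzymes and carriers of lipid and sulfur metabolism. Acsbg1, which activates long-chain fatty acids, had 7.75, 6.78 and 8.07 normalized CPM in cortex input against 595, 365 and 409 in cortex TRAP. It rose by 5.92 ± 0.39 (edgeR adjusted p = 3.47e-09), and all 3 cortex TRAP libraries were far above all inputs. Ttpa, a vitamin E transfer protein, had 157, 56.1 and 70.6 normalized CPM in cortex TRAP and 2.22, 1.60 and 0.55 in cortex input and rose by 6.01 ± 0.66 (5.30 without cortex TRAP replicate 1). Tst, a mitochondrial sulfurtransferase, had 6.42, 6.85 and 5.13 normalized CPM in cortex input and 314, 333 and 257 in cortex TRAP and rose by 5.61 ± 0.38. Slc9a3r1, a scaffold that holds transporters at the membrane, rose by 5.51 ± 0.51, and Ppp1r3g, which targets a phosphatase to glycogen, by 5.69 ± 0.93. Fxyd1, a regulator of the sodium pump, rose by 5.57 ± 0.47 (4.42 corrected for transcript length; 4.83 without cortex TRAP replicate 1). No gene given here by library overlapped between groups.

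For other genes among the largest rises, a single library carried the value. Dnm2, a dynamin of endocytosis, had 11.1, 13.2 and 12.5 normalized CPM in cortex input against 4076, 29.5 and 30.6 in cortex TRAP, and its change was 6.81 ± 1.33 with all libraries but 1.16, not called, without cortex TRAP replicate 1. Wipi1, an autophagy protein, had 1424, 33.9 and 34.002 normalized CPM in cortex TRAP and 8.20, 7.64 and 11.9 in cortex input, and its change went from 5.75 ± 1.07 to 1.74 without the same library. Atp13a4, a P-type ATPase, had 1.22, 0.399 and 1.10 normalized CPM in cortex input and 210.3, 2.74 and 8.43 in cortex TRAP, and its change went from 6.32 ± 1.24 to 2.48, no longer called. The transcript 4930488L21Rik had 0.554, 0.465 and 0.306 normalized CPM in cortex input against 1355, 2.90 and 2.81 in cortex TRAP, and its change went from 9.96 ± 1.84 to 2.53, no longer called. Both groups still did not overlap for any of these 4 genes.

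The largest falls held transcripts of the mitochondrial chromosome, which are translated by, or are part of, mitochondrial ribosomes without the tag, and genes used by neurons. The mitochondrial ribosomal RNA mt-Rnr2 had 1716, 1794 and 1945 normalized CPM in cortex TRAP and 196023, 251320.0 and 260974 in cortex input and fell by 7.02 ± 0.32 (-7.73 corrected for transcript length). Mir124a-1hg, the host transcript of a neuronal microRNA, had 65.2, 37.6 and 42.5 normalized CPM in cortex input and 1.25, 0.166 and 0.179 in cortex TRAP. Its change was -6.43 ± 0.99 (-8.17 without cortex TRAP replicate 1). Kit, a receptor tyrosine kinase, had 11.3, 17.5 and 12.9 normalized CPM in cortex input against 0.0566, 0.332 and 0.0598 in cortex TRAP and a change of -6.60 ± 0.58 (-7.79 without cortex TRAP replicate 2). Zfp831, a zinc finger gene, had 0.453, 0.0829 and 0.0598 normalized CPM in cortex TRAP and 11.2, 18.7 and 14.9 in cortex input and a change of -6.09 ± 0.75 (-5.01 corrected for transcript length; -7.65 without cortex TRAP replicate 1). None of these overlapped between groups.

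Surface receptors split by family. Across 297 receptor genes tested, 70 rose and 107 fell (23.6% and 36%, median -0.86), against 15.9% and 19.5% of all genes. Of 369 listed, the other members did not pass the filter on low counts. Of the 11 lists, receptors of the Notch, Wnt, Hedgehog, BMP and TGF-beta pathways had the largest share of rises, and receptors for monoamines and acetylcholine the largest share of falls.

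Of the Notch, Wnt, Hedgehog, BMP and TGF-beta receptors, 17 of 32 members tested rose and 5 fell (median log2 change 2.13). The number of falls was 2 corrected for transcript length, 3 corrected for GC content or at a minimum fold of 1.5. Smo, the signal transducer of Hedgehog, had 1.66, 1.53 and 2.63 normalized CPM in cortex input and 23.96, 39.97 and 24.4 in cortex TRAP. It rose by 3.92 ± 0.62 (edgeR adjusted p = 5.05e-05), with every cortex TRAP library above every input. Bmpr1b, a type I BMP receptor, had 8.03, 5.38 and 1.96 normalized CPM in cortex input against 49.3, 80.3 and 57.4 in cortex TRAP and rose by 3.60 ± 0.46. Ptch1, the Hedgehog receptor, rose by 2.55 ± 0.37 (3.74 corrected for transcript length). Named after their values were seen, 3 of 5 activin receptor genes fell and none rose: Acvr2a fell by 2.34 ± 0.40 and Acvr1b fell by 2.32 ± 0.33. The change of Bmpr2, the type II BMP receptor, was -0.998 ± 0.21 (0.45 corrected for transcript length, not called). The frizzled family, the receptors of Wnt ligands, was also named after its values were seen. Of its 10 genes tested, 7 rose, by 2.63 to 5.75 on the log2 scale. Of these, 3 passed the test under every alternative checked, which left out those with a replicate block. Fzd3 was the member that fell, with a change of -1.16 ± 0.33 (0.31 corrected for transcript length), and its call was lost with the length or GC correction and at a minimum fold of 1.5. The ranges of both groups stayed apart in all genes given by library here.

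Receptor tyrosine kinases went both ways, and 11 of 38 members tested rose and 17 fell (median log2 change -1.15). Ntrk2, the receptor of BDNF, had 2245, 2543 and 2505 normalized CPM in cortex TRAP and 269, 218 and 266 in cortex input, the highest level per kilobase of any receptor tested in cortex TRAP. It rose by 3.28 ± 0.23 (4.22 corrected for transcript length). Mertk, which binds phagocytic bridging proteins, had 5.10, 7.38 and 4.03 normalized CPM in cortex input and 175, 113 and 111 in cortex TRAP and rose by 4.60 ± 0.46 (edgeR adjusted p = 2.28e-07). Egfr, the receptor of epidermal growth factor, rose by 3.03 ± 0.31 (4.17 corrected for transcript length). Epha4, an ephrin receptor, had 100.02, 141 and 129 normalized CPM in cortex input against 8.16, 8.13 and 8.61 in cortex TRAP and fell by 3.89 ± 0.34 (-3.29 corrected for transcript length). In these 4 genes no library of either group reached the range of the other group.

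Among G protein-coupled receptors (GPCRs), more genes fell than rose. Of 24 receptors for monoamines and acetylcholine, none rose (edgeR, with 0 at an unadjusted p under 0.05 and 0 by DESeq2) and 14 fell (median log2 change -2.36). Their count of falls was 9 with both groups fitted alone. Chrm1, a muscarinic receptor of cortical neurons, had 9.06, 4.48 and 10.04 normalized CPM in cortex TRAP and 47.4, 37.8 and 58.2 in cortex input and fell by 2.60 ± 0.36 (-1.996 corrected for transcript length). Htr2c, a serotonin receptor, fell by 3.28 ± 0.61 (-3.93 without cortex TRAP replicate 2). Of the receptors for peptides, lipids and purines, 7 of 48 members tested rose and 22 fell (median log2 change -1.65). Here the count of falls was 13 with both groups fitted alone, 14 without cortex input replicate 2. S1pr1, a receptor of sphingosine 1-phosphate, had 27.7, 17.7 and 9.96 normalized CPM in cortex input and 574, 486 and 439 in cortex TRAP and rose by 4.76 ± 0.38 (edgeR adjusted p = 1.82e-08). Ntsr2, a neurotensin receptor, had 15.01, 8.44 and 7.34 normalized CPM in cortex input against 247, 276 and 275 in cortex TRAP and rose by 4.69 ± 0.38. Ednrb, an endothelin receptor, rose by 3.45 ± 0.35. In contrast, Cckbr, a receptor of cholecystokinin and gastrin, had 1.02, 0.663 and 3.29 normalized CPM in cortex TRAP and 25.97, 21.5 and 36.3 in cortex input, a change of -4.05 ± 0.48 (-5.16 without cortex TRAP replicate 3). Vipr1, a receptor of vasoactive intestinal peptide, had 6.20, 4.12 and 2.26 in cortex input and 0 counts in every cortex TRAP library, so it was at least 66.1-fold lower, taking 3 counts over the group as the floor. Cortex TRAP and cortex input did not overlap in any gene whose libraries are given.

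Of the orphan GPCRs, 7 of 34 members tested rose and 11 fell (median log2 change -0.75). Gpr37l1 had 11.4, 10.6 and 6.42 normalized CPM in cortex input and 359.6, 198 and 262 in cortex TRAP and rose by 4.85 ± 0.38, the largest rise of the list's named members. Gprc5b rose by 3.05 ± 0.36 and Gpr146 by 2.78 ± 0.48. Gpr158, which is known from the synapses of neurons, had 128, 130.2 and 116 normalized CPM in cortex input against 7.14, 12.02 and 14.8 in cortex TRAP and fell by 3.46 ± 0.31 (-2.74 corrected for transcript length). Of the adhesion GPCRs, 4 of 19 rose and 8 fell. The count of rises was 2 without cortex input replicate 1 or 3 or without cortex TRAP replicate 2, and that of falls was 4 corrected for transcript length. Adgrg1 had 131, 129 and 183 normalized CPM in cortex TRAP and 9.80, 8.97 and 12.2 in cortex input and rose by 3.84 ± 0.32. Of the metabotropic receptors of glutamate and GABA, 2 of 9 rose, Grm3 by 2.14 ± 0.29 and Gabbr1 by 1.54 ± 0.23, and 5 fell. For all genes with values by library, the groups stood apart.

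Receptors that read guidance cues, namely plexins, neuropilins and receptors of netrins and Slits, had 3 rises and 12 falls among 21 tested (median -2.20). The number of rises was 1 without cortex input replicate 1. Plxnb1, a plexin that binds class 4 semaphorins, had 6.87, 9.77 and 7.21 normalized CPM in cortex input and 105, 100.3 and 140.2 in cortex TRAP and rose by 3.86 ± 0.32 (4.79 corrected for transcript length). Plxna2 had 92.1, 97.3 and 109 normalized CPM in cortex input against 7.36, 10.4 and 11.5 in cortex TRAP and fell by 3.35 ± 0.30 (-2.10 corrected for transcript length), and Unc5d, a netrin receptor, fell by 3.59 ± 0.34 (-2.59 corrected for transcript length). In all 3 the groups stood apart.

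Cytokine and innate immune receptors had 7 rises and 4 falls among 33 tested (median 0.78). Their count of rises was 4 without cortex input replicate 3. Tlr3, a sensor of double-stranded RNA, had 99.7, 119 and 73.3 normalized CPM in cortex TRAP and 9.08, 3.46 and 2.45 in cortex input and rose by 4.27 ± 0.61 (4.89 without cortex input replicate 1). Cntfr, the receptor subunit that binds ciliary neurotrophic factor, had 8.92, 7.98 and 8.07 normalized CPM in cortex input and 87.2, 125 and 118 in cortex TRAP and rose by 3.72 ± 0.32. Tnfrsf19 rose by 3.17 ± 0.32. Microglia also use such receptors. Their markers took 0.00208% to 0.00322% of nuclear counts in cortex TRAP against 0.0112% to 0.0146% in cortex input. The part of microglial RNA in the changes of these receptors was not tested. Of the integrins, 5 of 16 rose, among them Itga6 by 2.35 ± 0.52, and 2 fell. Here the count of falls was 4 with no filter on low counts or without cortex TRAP replicate 2. Endocytic receptors split evenly, with 7 rises and 7 falls among 23: Scara3 rose by 3.51 ± 0.40 and Lrp10 by 3.41 ± 0.62, and Sort1 fell by 1.81 ± 0.27 (-1.12 corrected for transcript length). In each gene given by library, all libraries of the higher group lay above all of the lower group.

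**Figure D2:**
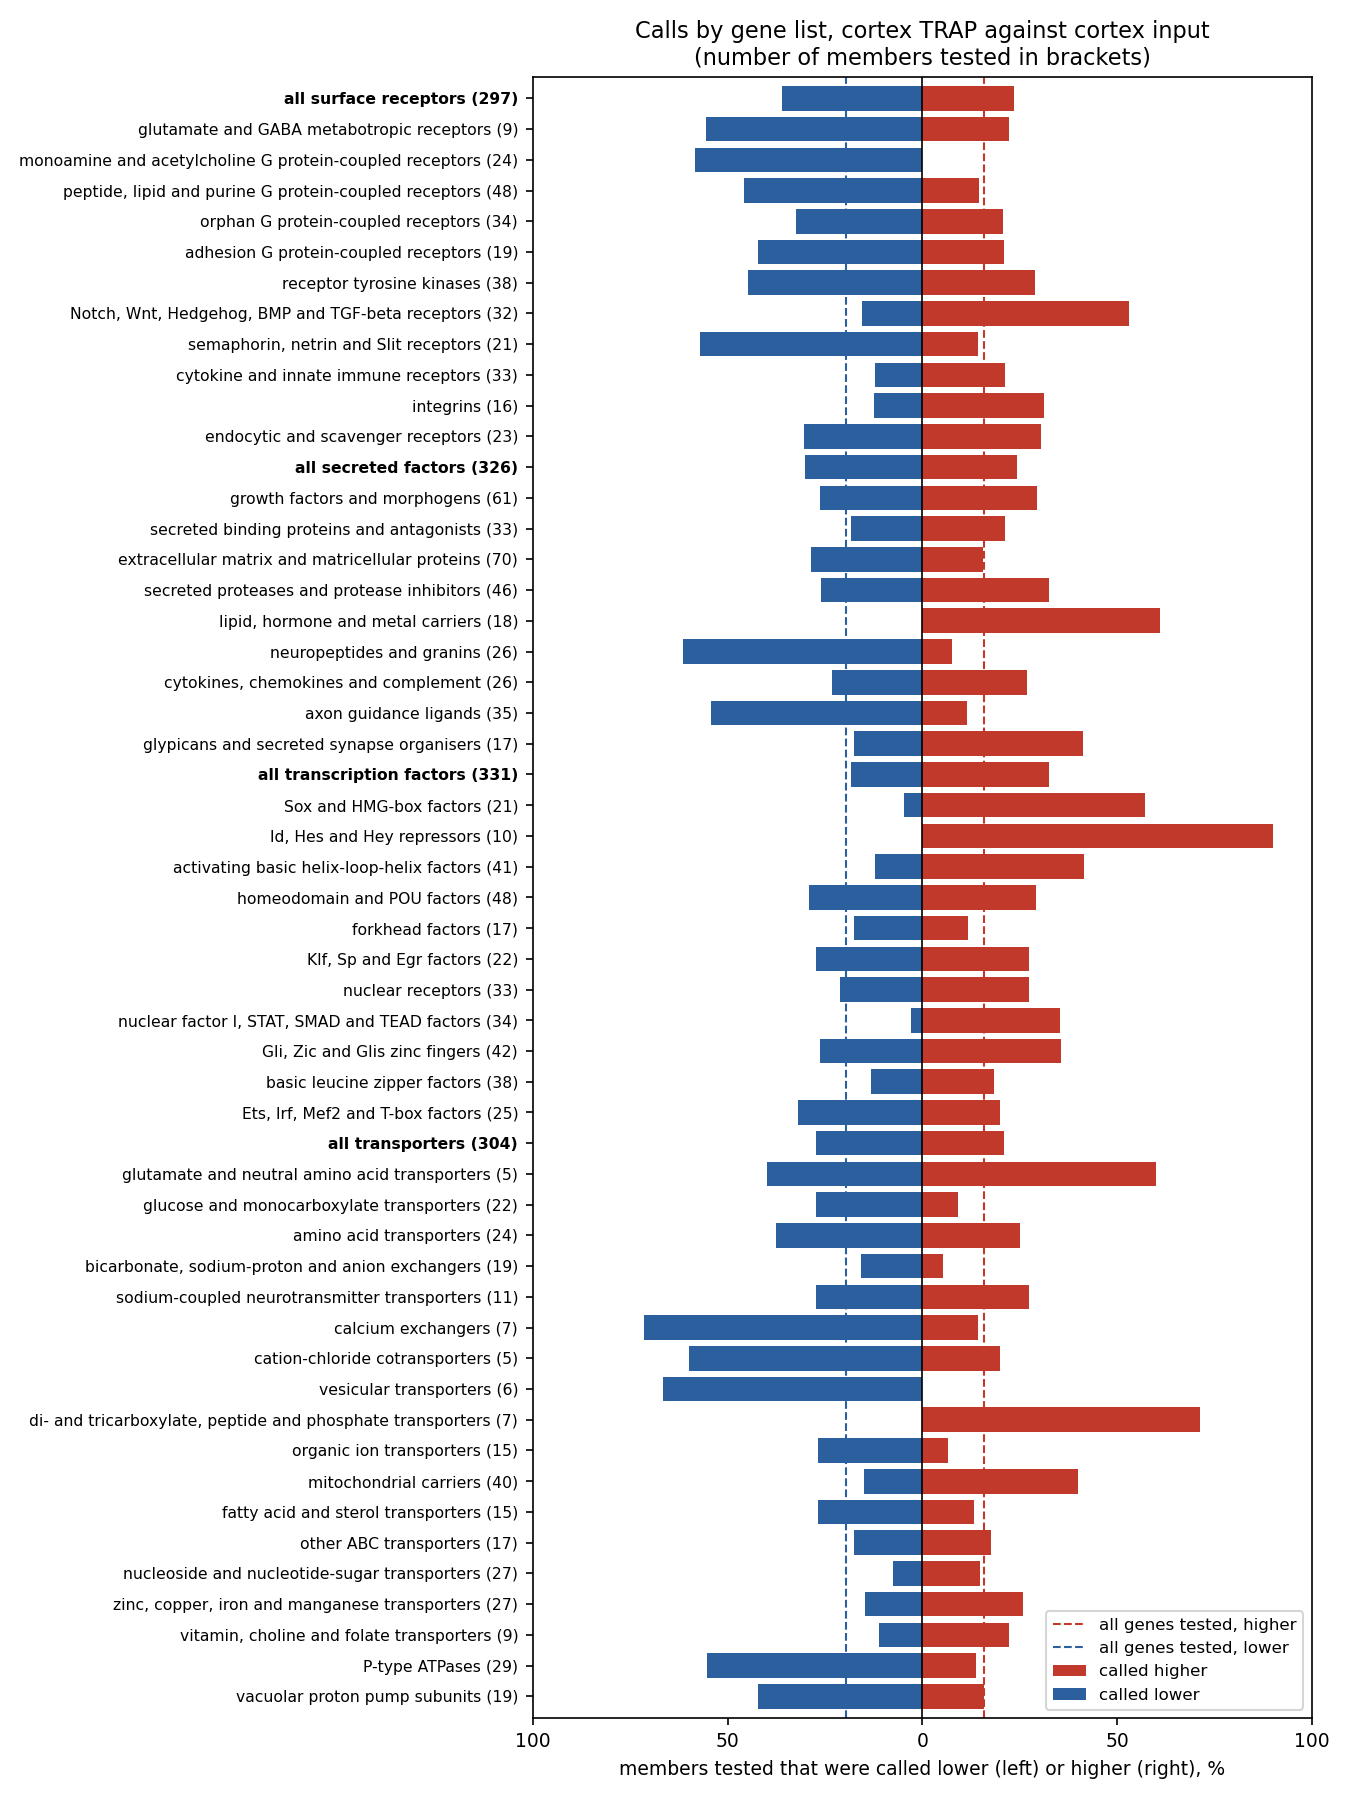
Share of the members tested in each list that were called higher (red, right) or lower (blue, left) in cortex TRAP, in percent, with the number of members tested after each name and the 4 class totals in bold. Dashed lines mark all genes tested, 15.9% higher and 19.5% lower. The Id, Hes and Hey repressors reach 90.0% higher, and the calcium exchangers 71.4% lower. The list named activating basic helix-loop-helix factors also holds repressors.

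The genes listed as secreted factors also divided by kind. The lists include members anchored in the membrane, such as Sema4b, Sema5a and Sdc4, and members kept in the cell, such as Fgf12. The totals are thus not of secreted proteins alone. Of 326 genes tested, 79 rose and 98 fell (24.2% and 30.1%, median -0.33). Carriers of lipids, hormones and metals rose or were not called, while neuropeptides and guidance ligands mostly fell.

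Of 18 carriers, 11 rose (median log2 change 3.10) and none fell (edgeR, with 1 at an unadjusted p under 0.05 and 1 by DESeq2). The count of falls was 1 with DESeq2 or corrected for transcript length. Selenop, which transports selenium, had 72.7, 60.2 and 67.4 normalized CPM in cortex input against 1254, 1623 and 1774 in cortex TRAP and rose by 4.54 ± 0.32 (edgeR adjusted p = 6.16e-09). Clu, an extracellular chaperone and apolipoprotein, had 1248, 995 and 1156 normalized CPM in cortex TRAP and 63.5, 58.3 and 59.5 in cortex input and rose by 4.23 ± 0.28 (3.64 corrected for transcript length). Apoe, the main lipid carrier of brain, rose by 4.74 ± 0.32 (3.95 corrected for transcript length). Ttr, which is in this list and among the choroid plexus markers, had 30.4, 25.9 and 17.2 normalized CPM in cortex input and 393, 268 and 121 in cortex TRAP and rose by 3.41 ± 0.57 (2.50 corrected for transcript length), and the part of choroid plexus RNA in its change was not tested. No gene given here by library overlapped between groups.

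Growth factors and morphogens had 18 rises and 16 falls among 61 tested (median 0.76). The number of rises was 9 without cortex input replicate 3, 10 without cortex input replicate 1, 11 without cortex TRAP replicate 2, and that of falls was 10 at a minimum fold of 1.5 or without cortex input replicate 2. Fgf1, a fibroblast growth factor, had 23.9, 30.05 and 37.4 normalized CPM in cortex input against 597, 543 and 449 in cortex TRAP and rose by 4.12 ± 0.31 (edgeR adjusted p = 1.06e-08). Ptn, a heparin-binding growth factor, had 453, 565 and 465 normalized CPM in cortex TRAP and 51.4, 97.6 and 63.5 in cortex input and rose by 2.80 ± 0.30. Vegfb rose by 3.56 ± 0.43 (2.71 corrected for transcript length). Nrg3, a neuregulin of neurons, fell by 3.05 ± 0.39 (-3.67 without cortex TRAP replicate 2), and Bmp3 fell by 3.90 ± 0.47 (-3.25 corrected for transcript length). Among secreted binding proteins and antagonists, 7 of 33 rose and 6 fell: Htra1, a secreted protease that also binds growth factors, had 9.19, 8.04 and 15.1 normalized CPM in cortex input and 162, 141 and 213 in cortex TRAP and rose by 3.99 ± 0.39, and Chrdl1, a BMP antagonist, rose by 4.12 ± 0.48 (4.79 without cortex input replicate 1). The ranges of both groups stayed apart in all genes given by library here.

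Proteases and their inhibitors had 15 rises and 12 falls among 46 tested. Cst3, an inhibitor of cysteine proteases, had 94.3, 91.7 and 90.6 normalized CPM in cortex input against 1948, 2165 and 2416 in cortex TRAP and rose by 4.56 ± 0.31 (edgeR adjusted p = 3.67e-09; 3.48 corrected for transcript length). Serpine2 had 234, 258 and 239 normalized CPM in cortex TRAP and 18.7, 26.99 and 33.1 in cortex input and rose by 3.21 ± 0.31, while its relative Serpini1, which neurons are known to secrete, had 85.5, 96.3 and 83.6 normalized CPM in cortex input and 4.14, 3.15 and 3.17 in cortex TRAP and fell by 4.66 ± 0.29. Both are inhibitors of serine proteases. Pcsk2, which cuts prohormones, fell by 2.55 ± 0.30. Prohormones themselves went the same way: of neuropeptides and granins, 2 of 26 members tested rose and 16 fell (median log2 change -2.59). Scg2, a granin of dense-core vesicles, had 41.4, 40.3 and 54.8 normalized CPM in cortex input against 5.72, 1.49 and 4.06 in cortex TRAP and fell by 3.58 ± 0.41, and Chgb fell by 3.44 ± 0.35. The members that rose were Dbi, an acyl-CoA binding protein also cut to peptides that bind GABA receptors, with 1722, 2056 and 1986 normalized CPM in cortex TRAP and 70.2, 55.4 and 85.6 in cortex input, a rise of 4.77 ± 0.36 (3.59 corrected for transcript length), and Agt, the angiotensin precursor, with a rise of 4.41 ± 0.69 (3.76 without cortex TRAP replicate 3). Cortex TRAP and cortex input did not overlap in any gene whose libraries are given.

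Of extracellular matrix and matricellular proteins, 11 of 70 rose and 20 fell. Their count of falls was 13 corrected for transcript length. Sparc had 67.1, 87.1 and 67.2 normalized CPM in cortex input and 1488, 1356 and 1389 in cortex TRAP and rose by 4.26 ± 0.31, and its relative Sparcl1 rose by 3.49 ± 0.25. Both are secreted by astrocytes and known to act on synapses. Bcan, a hyaluronan-binding proteoglycan, rose by 4.07 ± 0.35. Hapln4, a link protein of perineuronal nets, fell by 2.92 ± 0.33, and Spock1 had 161, 164 and 187 normalized CPM in cortex input against 10.9, 7.55 and 15.7 in cortex TRAP and fell by 3.90 ± 0.31. Of glypicans and secreted synapse organisers, 7 of 17 rose and 3 fell: the heparan sulfate proteoglycan Sdc4 had 194, 217 and 306 normalized CPM in cortex TRAP and 9.69, 13.4 and 16.9 in cortex input and rose by 4.17 ± 0.33, Gpc5, a glypican, rose by 4.14 ± 0.45, and the neuronal pentraxin Nptx1, with 65.4, 68.1 and 87.4 normalized CPM in cortex input and 3.63, 1.49 and 3.11 in cortex TRAP, fell by 4.72 ± 0.38. For all genes with values by library, the groups stood apart.

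Guidance ligands had 4 rises and 19 falls among 35 tested (median -1.49). Sema3a, a secreted repellent, had 27.5, 28.4 and 18.3 normalized CPM in cortex input against 1.70, 1.91 and 0.896 in cortex TRAP and fell by 4.04 ± 0.43, and Sema5a fell by 3.63 ± 0.27 (-2.41 corrected for transcript length). Sema4b rose by 2.97 ± 0.56 and Rgma, a ligand of neogenin, by 2.84 ± 0.36. Of cytokines, chemokines and complement genes, 7 of 26 rose and 6 fell. Cxcl14, a chemokine, had 90.1, 84.7 and 119.5 normalized CPM in cortex TRAP and 4.76, 3.79 and 4.34 in cortex input and rose by 4.51 ± 0.40. Il33, an alarmin of the interleukin 1 family, rose by 4.11 ± 0.85 (3.18 without cortex TRAP replicate 1). Cx3cl1, the neuronal ligand of a microglial receptor, had 137, 114 and 138 normalized CPM in cortex input and 10.4, 14.8 and 13.7 in cortex TRAP and fell by 3.32 ± 0.27. In each gene given by library, all libraries of the higher group lay above all of the lower group.

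**Figure D3:**
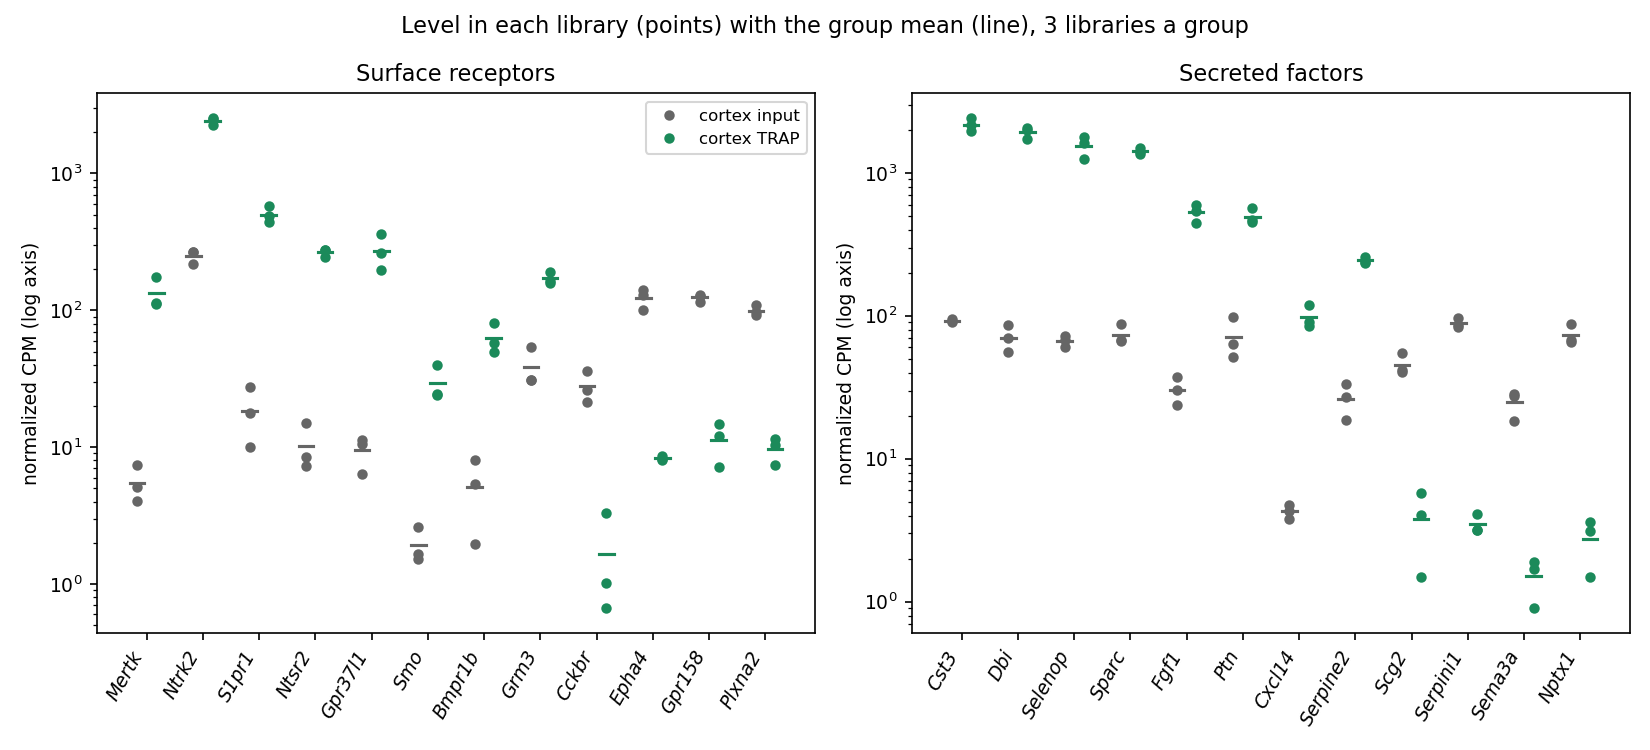
Level in normalized CPM (log axis) of 12 surface receptors (left) and 12 secreted factors (right), with each of the 3 libraries of cortex input (grey) and cortex TRAP (green) as a point and the group mean as a line. In all 24 genes the libraries of both groups do not overlap; 16 are higher and 8 lower in cortex TRAP.

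Transcription factors, unlike receptors and secreted factors, rose more often than they fell. Of 331 tested, 108 rose and 61 fell (32.6% and 18.4%, median 0.44). The difference between classes was not tested.

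Of 10 Id, Hes and Hey repressors, which block other basic helix-loop-helix factors, 9 rose (median log2 change 3.84) and none fell (edgeR, with 0 at an unadjusted p under 0.05 and 0 by DESeq2). Id3 had 8.81, 5.92 and 7.09 normalized CPM in cortex input against 175, 191 and 191 in cortex TRAP and rose by 4.67 ± 0.38 (edgeR adjusted p = 2.17e-08; 3.81 corrected for transcript length). Id4 had 77.1, 64.9 and 62.9 normalized CPM in cortex TRAP and 5.04, 2.86 and 2.45 in cortex input and rose by 4.30 ± 0.46, and Id2 rose by 2.97 ± 0.34. Hes5, a Notch target whose promoter is shown above, had 1.72, 1.53 and 2.26 normalized CPM in cortex input and 44.4, 29.2 and 72.01 in cortex TRAP and rose by 4.72 ± 0.66 (3.85 corrected for transcript length), and Heyl had 2.94, 1.40 and 2.02 normalized CPM in cortex input against 20.3, 78.5 and 56.4 in cortex TRAP and rose by 4.60 ± 0.57. Hes6, which acts against Hes1, had 3.85, 1.58 and 3.53 normalized CPM in cortex TRAP and 0.111, 0.731 and 0 in cortex input and was not called (3.38 ± 1.44, edgeR adjusted p = 0.0765; called with DESeq2, with both groups fitted alone and without cortex input replicate 2). Named after their values were seen, Id1 had 0.443, 0.532 and 0 normalized CPM in cortex input and 18.3, 11.5 and 16.6 in cortex TRAP and rose by 5.53 ± 1.09 (4.65 corrected for transcript length; 4.82 without cortex input replicate 3), and Hes1 had 1.33, 2.19 and 1.10 normalized CPM in cortex input against 7.99, 12.7 and 11.7 in cortex TRAP. The rise of Hes1, 2.80 ± 1.03, was lost with the length correction, at a minimum fold of 1.5 and without any 1 of the 6 libraries. No gene given here by library overlapped between groups.

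Of the wider Notch pathway, 13 of 29 members tested rose and 2 fell (median log2 change 1.64). Here the count of falls was 1 corrected for transcript length. Nrarp had 139, 117 and 127 normalized CPM in cortex TRAP and 4.26, 4.59 and 1.47 in cortex input and rose by 5.21 ± 0.60 (edgeR adjusted p = 1.43e-06), the largest change of the list. The receptors Notch1 and Notch2 rose by 2.18 ± 0.49 (3.22 corrected for transcript length; 1.58 without cortex TRAP replicate 3) and 1.73 ± 0.44 (2.93 corrected for transcript length). Named after their values were seen, Lfng had 3.77, 0.798 and 3.42 normalized CPM in cortex input and 17.5, 18.2 and 15.4 in cortex TRAP and rose by 2.67 ± 0.66, and Rbpj, the nuclear partner of all Notch receptors, had 5.65, 7.25 and 6.05 normalized CPM in cortex input against 7.42, 4.23 and 11.7 in cortex TRAP, a change of 0.30 ± 0.62 that was not called. The falls were Maml3, a coactivator, and Numbl, an inhibitor of Notch, at -2.94 ± 0.68 (-2.07 corrected for transcript length; -4.22 without cortex TRAP replicate 2) and -1.96 ± 0.57 (-1.06 corrected for transcript length, not called; -2.75 without cortex TRAP replicate 3). The groups overlapped in Rbpj and in none of the other genes given by library.

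The Hedgehog pathway had 7 rises and 2 falls among 14 genes (median 1.59). The rises held receptors and nuclear effectors, and the falls held the ligand and its release: Gli3, a nuclear effector, had 91.8, 107 and 57.01 normalized CPM in cortex TRAP and 9.53, 6.45 and 3.42 in cortex input and rose by 3.72 ± 0.53 (4.57 corrected for transcript length), while Disp2, of the Dispatched family of ligand release, had 109, 94.5 and 96.4 normalized CPM in cortex input and 5.49, 2.07 and 6.16 in cortex TRAP and fell by 4.43 ± 0.38 (-3.78 corrected for transcript length). The ligand Shh had 0.665, 0.731 and 1.47 normalized CPM in cortex input against 0.0566, 0 and 0.0598 in cortex TRAP, and its fall was lost with no filter, at a minimum fold of 1.5 and without any 1 of the 6 libraries. Named after their values were seen, the effector Gli2 had 44.1, 29.3 and 26.7 normalized CPM in cortex TRAP and 2.49, 1.73 and 3.67 in cortex input and rose by 3.66 ± 0.66 (4.32 corrected for transcript length), and Gas1, a coreceptor, rose by 3.81 ± 0.90. Cortex TRAP and cortex input did not overlap in any gene whose libraries are given.

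In the FGF pathway, 12 of 22 members tested rose and 3 fell (median log2 change 1.03). The count of rises was 7 without cortex input replicate 1, 2 or 3, and that of falls was 1 corrected for GC content or at a minimum fold of 1.5 or without cortex input replicate 2 or without cortex TRAP replicate 3. The receptors Fgfr3 and Fgfr1 rose by 3.33 ± 0.41 and 2.81 ± 0.39, beside the ligand Fgf1 described above. Flrt3, a partner of FGF receptors, fell by 2.58 ± 0.48. In the Wnt pathway, 15 of 35 members tested rose and 4 fell (median log2 change 1.76). The number of falls was 1 corrected for transcript length, 2 corrected for GC content or at a minimum fold of 1.5. Fzd1 rose by 2.63 ± 0.53, and the feedback genes Axin2 and Nkd1 by 2.26 ± 0.48 and 3.53 ± 0.67. Wnt4, a ligand, fell by 2.86 ± 0.64. In the BMP and TGF-beta pathway, 11 of 34 genes rose and 5 fell, and 4 of the rises were Id genes. In the Hippo pathway, 9 of 21 genes rose (median 1.43) and 1 fell. Their count of falls was 2 with no filter on low counts or without cortex TRAP replicate 2. Its effectors Wwtr1, with 4.87, 7.71 and 6.91 normalized CPM in cortex input and 74.1, 75.1 and 76.01 in cortex TRAP, and Tead1 rose by 3.53 ± 0.41 and 2.66 ± 0.28 (3.78 corrected for transcript length). In contrast, Ccn2, a target of the pathway, fell, with 5 counts in all cortex TRAP libraries together against 181 in cortex input.

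Sox and other HMG-box factors rose in 12 of 21 members tested (median 1.74), and 1 fell. Sox9, a determinant of glial fate, had 12.6, 14.2 and 15.8 normalized CPM in cortex input against 294, 221 and 269.5 in cortex TRAP and rose by 4.20 ± 0.31 (edgeR adjusted p = 7.83e-09). Sox21 had 58.004, 77.95 and 76.5 normalized CPM in cortex TRAP and 3.49, 2.33 and 2.08 in cortex input and rose by 4.74 ± 0.52, and Sox1 rose by 3.43 ± 0.43. Sox10, the determinant of oligodendrocytes, was the member that fell: it fell by 2.76 ± 0.63 (-1.99 without cortex input replicate 3). Of nuclear factor I, STAT, SMAD and TEAD factors, 12 of 34 rose, Nfia by 2.45 ± 0.31 (3.51 corrected for transcript length), and 1 fell. Here the count of falls was 2 with DESeq2 or without cortex input replicate 3 or without cortex TRAP replicate 1 or 3. For all genes with values by library, the groups stood apart.

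Homeodomain and POU factors split evenly, 14 up and 14 down of 48 tested. The count of rises was 9 without cortex TRAP replicate 3. Lhx2, a patterning factor of the cortex, had 27.5, 31.6 and 44.99 normalized CPM in cortex input and 932, 532 and 405 in cortex TRAP, the highest level per kilobase of the factors tested in cortex TRAP, and rose by 4.17 ± 0.36. Hopx rose by 4.64 ± 0.41 (3.78 corrected for transcript length) and Emx2 by 3.47 ± 0.40. Lmo3, with 117, 109 and 114 normalized CPM in cortex input against 21.4, 29.6 and 28.1 in cortex TRAP, fell by 2.10 ± 0.32. In each gene given by library, all libraries of the higher group lay above all of the lower group.

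The other basic helix-loop-helix factors listed, activators together with repressors such as Mxd1 and Bhlhe40, had 17 rises and 5 falls among 41. The number of rises was 11 without cortex input replicate 3. Epas1, a hypoxia-inducible factor, had 458, 399 and 542 normalized CPM in cortex TRAP and 39.9, 27.2 and 31.1 in cortex input and rose by 3.83 ± 0.34. Neurod6, a factor of excitatory neurons, had 90.9, 64.5 and 65.04 normalized CPM in cortex input and 8.67, 9.04 and 8.66 in cortex TRAP and fell by 3.06 ± 0.33. Of nuclear receptors, 9 of 33 rose and 7 fell. Their count of rises was 5 without cortex input replicate 1 or 3 or without cortex TRAP replicate 3. Nr2e1, known from neural stem cells, had 4.98, 9.64 and 8.25 normalized CPM in cortex input against 193, 206 and 128 in cortex TRAP and rose by 4.53 ± 0.46, and the clock repressor Nr1d1 rose by 2.61 ± 0.36. Of basic leucine zipper factors, 7 of 38 rose and 5 fell. Here the count of falls was 2 corrected for transcript length, 3 without cortex input replicate 2, 8 without cortex TRAP replicate 3. Nfe2l2, the regulator of antioxidant genes, had 106, 126 and 112 normalized CPM in cortex TRAP and 4.26, 8.11 and 10.9 in cortex input and rose by 3.88 ± 0.42, and Atf4 rose by 2.06 ± 0.35. No gene given here by library overlapped between groups.

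Among zinc fingers of the Gli, Zic and Glis type and their listed neighbours, 15 of 42 rose and 11 fell. Rfx4 had 5.21, 8.24 and 5.26 normalized CPM in cortex input and 131, 122 and 112 in cortex TRAP and rose by 4.29 ± 0.38. Myt1l, which holds neuronal identity, had 153, 179.8 and 133 normalized CPM in cortex input against 18.9, 10.5 and 20.4 in cortex TRAP and fell by 3.22 ± 0.30 (-2.48 corrected for transcript length). Klf15 rose by 3.61 ± 0.50 (2.81 without cortex TRAP replicate 1), while the activity-induced factor Egr1 had 14.4, 114 and 102 normalized CPM in cortex TRAP and 340.3, 385 and 412 in cortex input and fell by 2.30 ± 0.47. Of the Ets, Irf, Mef2 and T-box factors, 8 of 25 fell and 5 rose, though 1 to 3 rose on leaving out any 1 of the 6 libraries. Mef2c had 798, 823 and 861 normalized CPM in cortex input and 56.8, 60.8 and 85.3 in cortex TRAP and fell by 3.61 ± 0.30 (-3.02 corrected for transcript length), and Tbr1, a factor of deep-layer neurons, had 88.004, 82.8 and 86.01 normalized CPM in cortex input against 4.36, 4.64 and 3.29 in cortex TRAP and fell by 4.38 ± 0.30. The ranges of both groups stayed apart in all genes given by library here.

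Transporters rose in 64 and fell in 83 of 304 members tested (21.1% and 27.3%, median -0.28). Carriers of the mitochondrial inner membrane and transporters of citrate-type acids, peptides and phosphate rose more often than all genes did, and calcium exchangers, vesicular transporters and P-type ATPases fell more often.

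Of the transporters of glutamate and neutral amino acids, 3 of 5 rose and 2 fell. The count of falls was 1 with both groups fitted alone or without cortex input replicate 2 or without cortex TRAP replicate 1, 2 or 3. Slc1a2, which does most of the glutamate uptake in cortex, had 16689, 24678 and 27562 normalized CPM in cortex TRAP and 2086, 2399 and 2589.9 in cortex input and rose by 3.28 ± 0.27 (4.60 corrected for transcript length). Slc1a3 had 63.6, 66.01 and 65.5 normalized CPM in cortex input and 1078, 1106 and 1182 in cortex TRAP and rose by 4.11 ± 0.27 (edgeR adjusted p = 3.47e-09), and Slc1a1, the transporter known from neurons, had 48.5, 62.8 and 48.5 normalized CPM in cortex input against 2.61, 8.54 and 6.75 in cortex TRAP and fell by 3.17 ± 0.44. Of the other amino acid transporters, 6 of 24 rose and 9 fell. The number of falls was 5 corrected for transcript length. Slc38a3, which moves glutamine, had 69.7, 68.2 and 72.4 normalized CPM in cortex TRAP and 0.997, 3.39 and 0.978 in cortex input and rose by 5.30 ± 0.62 (6.13 without cortex input replicate 2). Slc7a2, a carrier of cationic amino acids, rose by 2.99 ± 0.31 (3.82 corrected for transcript length). The GABA transporter Slc6a11 rose by 3.77 ± 0.31, and Slc6a17, found on synaptic vesicles, had 252, 240.0 and 283 normalized CPM in cortex input and 21.7, 25.8 and 27.2 in cortex TRAP and fell by 3.37 ± 0.29 (-2.78 corrected for transcript length). Cortex TRAP and cortex input did not overlap in any gene whose libraries are given.

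Of the mitochondrial carriers, 16 of 40 members tested rose and 6 fell (median log2 change 0.86). Their count of rises was 8 without cortex input replicate 2, 9 without cortex input replicate 1, 10 corrected for transcript length or without cortex input replicate 3 or without cortex TRAP replicate 1, 2 or 3. Slc25a18, a glutamate carrier, had 5.76, 2.46 and 0.489 normalized CPM in cortex input against 89.95, 84.999 and 98.1 in cortex TRAP and rose by 4.96 ± 0.59 (5.80 without cortex input replicate 1; 4.32 without cortex input replicate 3). Slc25a5, an exchanger of ADP and ATP, rose by 1.86 ± 0.30 (0.98 corrected for transcript length). Slc25a21, a carrier of oxodicarboxylates, had 0 counts in every cortex input library and 7.31, 12.9 and 3.41 normalized CPM in cortex TRAP, so it was at least 121-fold higher. Slc25a36 fell by 2.84 ± 0.41 (-3.45 without cortex TRAP replicate 2) and Slc25a37, an iron carrier, fell by 2.31 ± 0.50.

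The list of di- and tricarboxylate, peptide and phosphate transporters had 5 rises and no fall (edgeR, with 0 at an unadjusted p under 0.05 and 0 by DESeq2) among 7 tested. Slc15a2, a transporter of small peptides, had 50.6, 61.4 and 32.1 normalized CPM in cortex TRAP and 2.82, 2.59 and 4.65 in cortex input and rose by 3.83 ± 0.56 (edgeR adjusted p = 2.44e-05). Slc13a5, the citrate transporter, had 0.775, 3.92 and 7.21 normalized CPM in cortex input and 36.4, 85.7 and 62.3 in cortex TRAP and rose by 3.95 ± 0.63 (3.31 without cortex input replicate 1; 4.57 without cortex input replicate 3), and Slc20a2, a phosphate transporter, by 3.44 ± 0.50 (2.41 without cortex TRAP replicate 1). Members of other lists follow. Slco1c1, which moves thyroid hormone, had 6.98, 4.45 and 2.08 normalized CPM in cortex input against 82.5, 57.1 and 66.9 in cortex TRAP. It rose by 3.93 ± 0.44, the single rise among 15 organic ion transporters tested, where 4 fell. That count of falls was 2 corrected for transcript length, with both groups fitted alone or without cortex input replicate 1 or 2. Slc27a1, which imports fatty acids, had 168, 102 and 149 normalized CPM in cortex TRAP and 8.64, 9.37 and 9.05 in cortex input. It rose by 3.95 ± 0.42. Of 15 transporters of fatty acids and sterols tested, 2 rose and 4 fell (2 corrected for transcript length). For all genes with values by library, the groups stood apart.

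Metal transporters had 7 rises and 4 falls among 27. Slc39a12, a zinc importer, had 5.15, 2.39 and 2.45 normalized CPM in cortex input and 63.4, 69.9 and 65.9 in cortex TRAP and rose by 4.31 ± 0.54, and Slc41a1, a magnesium transporter, rose by 3.02 ± 0.28. Slc30a3, which loads zinc into synaptic vesicles, had 19.4, 19.5 and 23.9 normalized CPM in cortex input against 0.566, 0.498 and 5.20 in cortex TRAP, a change of -3.30 ± 0.67 (-5.41 without cortex TRAP replicate 3). Of exchangers of bicarbonate, protons and anions, Slc4a4, a sodium bicarbonate cotransporter, had 526, 578 and 588 normalized CPM in cortex TRAP and 77.3, 68.3 and 66.4 in cortex input and rose by 2.995 ± 0.24 (edgeR adjusted p = 2.06e-08; 3.83 corrected for transcript length), the single rise among 19 tested, where 3 fell. Here the count of falls was 5 without cortex TRAP replicate 1 or 3. In each gene given by library, all libraries of the higher group lay above all of the lower group.

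The falls held pumps and exchangers of calcium and loaders of vesicles. Of calcium exchangers, 5 of 7 fell and 1 rose: Slc24a2 had 521, 547 and 569 normalized CPM in cortex input and 41.6, 19.7 and 43.9 in cortex TRAP and fell by 3.96 ± 0.30 (-2.76 corrected for transcript length), and Slc8a2 fell by 3.31 ± 0.33. Of P-type ATPases, 16 of 29 fell, among them the calcium pump Atp2b2 with 497, 442 and 546 normalized CPM in cortex input against 50.5, 32.3 and 60.1 in cortex TRAP; it fell by 3.38 ± 0.29 (-2.40 corrected for transcript length), and 4 rose. The count of rises was 2 without cortex TRAP replicate 1. Vesicular transporters of glutamate, GABA and monoamines fell in 4 of 6 members tested and none rose (edgeR, with 0 at an unadjusted p under 0.05 and 0 by DESeq2). Cation-chloride cotransporters fell in 3 of 5 and rose in 1. Vacuolar proton pump subunits fell in 8 of 19 and rose in 3: Atp6v1g2, the neuronal G subunit, fell by 2.48 ± 0.32 (-3.15 without cortex TRAP replicate 2), and Atp6v0a2 rose by 2.38 ± 0.44. No gene given here by library overlapped between groups.

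In the transporter lists for sugars and monocarboxylates, other ABC transporters, nucleosides and vitamins, most members were not called. None of these lists had more than 6 rises or 6 falls.

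**Figure D4:**
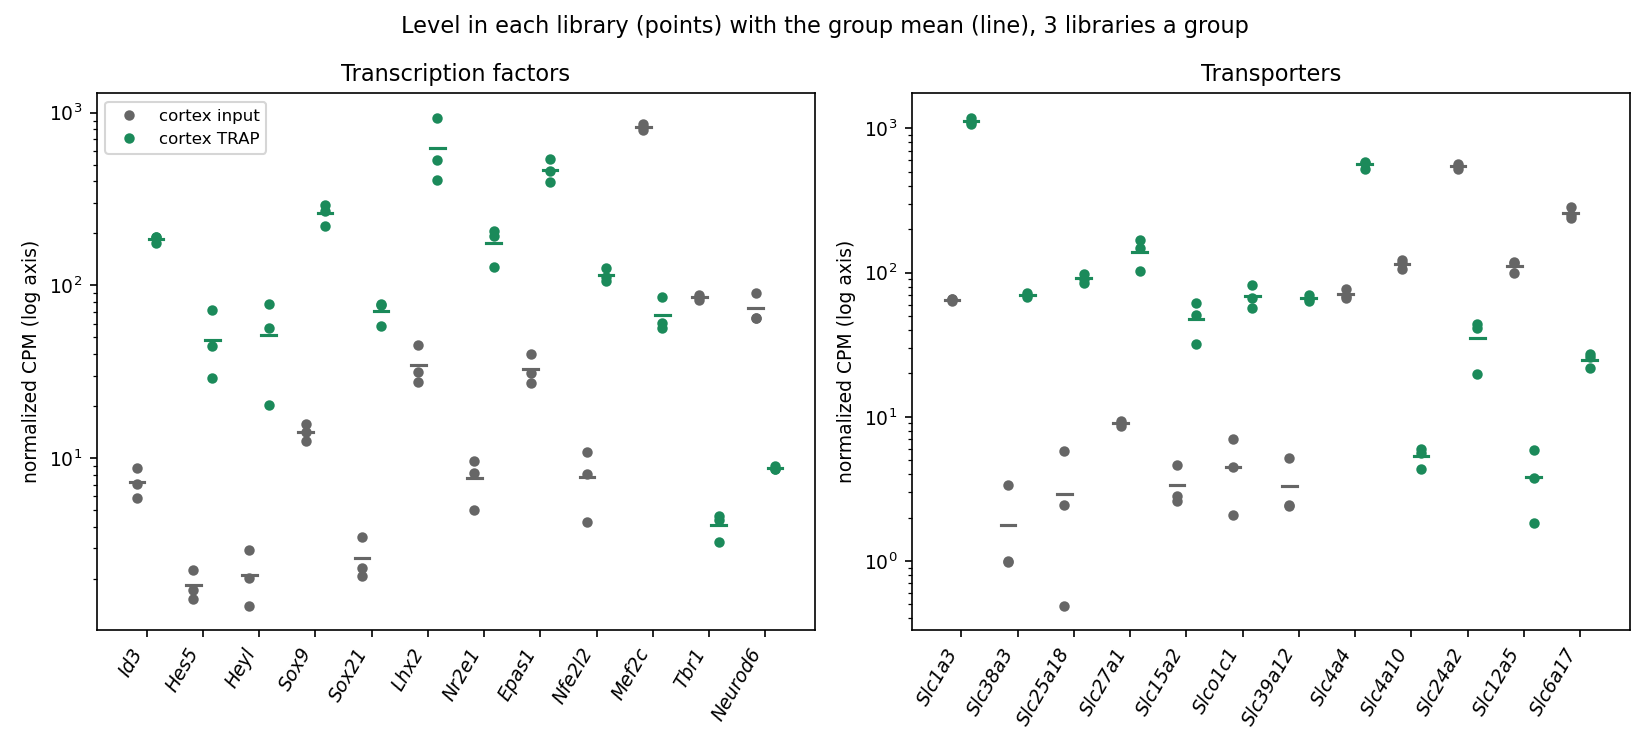
Level in normalized CPM (log axis) of 12 transcription factors (left) and 12 transporters (right), with each of the 3 libraries of cortex input (grey) and cortex TRAP (green) as a point and the group mean as a line. In all 24 genes the libraries of both groups do not overlap; 17 are higher and 7 lower in cortex TRAP.

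A larger share of ion channels fell than of any of the 4 classes above. Of 194 tested, 22 rose and 115 fell (median -2.11), and voltage-gated sodium and calcium channels had no rise (edgeR, with 0 at an unadjusted p under 0.05 and 0 by DESeq2) and 23 falls among 30. Potassium channels fell in 43 of 68 and rose in 7, TRP, Piezo and purine-gated channels fell in 11 of 25 and rose in 4 (2 without cortex input replicate 3 or cortex TRAP replicate 1), and aquaporins and connexins fell in 4 of 13 and rose in 5. The inward rectifiers Kcnj10, with 576, 819 and 759 normalized CPM in cortex TRAP and 44.6, 57.3 and 60.6 in cortex input, and Kcnj16 rose by 3.73 ± 0.32 and 3.93 ± 0.46 (4.53 without cortex input replicate 3). The small-conductance channel Kcnn2 rose by 2.67 ± 0.36, and Kcnf1 fell by 4.03 ± 0.37. Ttyh1, a chloride channel relative, had 147, 157 and 143 normalized CPM in cortex input and 1636, 2036 and 1691 in cortex TRAP and rose by 3.58 ± 0.28. Of 39 ionotropic receptors 28 fell and 3 rose. Among the rises, Gabrg1, a GABA receptor subunit, had 6.26, 4.12 and 4.16 normalized CPM in cortex input against 27.5, 30.02 and 38.9 in cortex TRAP and rose by 2.73 ± 0.45, and the NMDA receptor subunit Grin2c rose by 5.32 ± 0.66 (6.08 without cortex input replicate 2). The change of the mechanosensitive channel Tmem63b rested on cortex TRAP replicate 1 (3.27 ± 0.87, and -0.33 without it). The ranges of both groups stayed apart in all genes given by library here.

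Some related genes parted. The 30 pairs were chosen with earlier results of these data known, and the first member was set to the gene known from astrocytes. Their counts therefore describe the chosen pairs and not related genes at large. Over all genes tested, 15.9% rose and 19.5% fell. In 16 pairs the first member rose while the second fell. In 5 pairs both rose, in 7 the second was not called and in 2 the second was not tested. Slc4a10, a relative of Slc4a4 known from neurons, had 5.95, 5.64 and 4.36 normalized CPM in cortex TRAP and 106, 116 and 121 in cortex input and fell by 4.43 ± 0.31. Of glucose transporters, Slc2a1 had 14.5, 10.7 and 10.3 normalized CPM in cortex input and 34.8, 29.3 and 51.5 in cortex TRAP and rose by 1.71 ± 0.38, and the neuronal Slc2a3 fell by 3.25 ± 0.41 (-3.93 without cortex TRAP replicate 3). Lhx2 and Lhx6, a factor of interneurons, had 4.17 ± 0.36 and -3.39 ± 0.60 (-4.23 without cortex TRAP replicate 3). The potassium-chloride cotransporter of neurons, Slc12a5, had 99.7, 116 and 118 normalized CPM in cortex input against 5.89, 1.82 and 3.76 in cortex TRAP and fell by 4.84 ± 0.41, while its relative Slc12a4 rose by 3.13 ± 0.83. Cortex TRAP and cortex input did not overlap in any gene whose libraries are given.

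In the pairs where both rose, the intervals of the changes overlapped for Fgfr3 and Fgfr1, Notch1 and Notch2, and Ednrb and Ednra. They did not overlap for Id3 and Id2, with 95% intervals of 3.88 to 5.46 and 2.25 to 3.69. Foxo3 and Rora were not called (0.44 ± 0.27 and 0.08 ± 0.25; with the length correction both were called, at 1.13 and 1.32) beside rises of 2.91 ± 0.37 (3.88 corrected for transcript length) for Foxo1 and 1.54 ± 0.23 (2.57 corrected for transcript length) for Rorb. Between groups Thbs2 overlapped and Thbs4 did not. Thbs2, a matrix protein of synapse formation, had 1.19, 0 and 1.02 normalized CPM in cortex TRAP and 0.498, 1.79 and 0.611 in cortex input and was not called, beside Thbs4 with 1.11, 0.665 and 0.0611 normalized CPM in cortex input and 34.7, 29.2 and 21.4 in cortex TRAP and a rise of 5.50 ± 0.67 (6.12 without cortex input replicate 1; 4.83 without cortex input replicate 3).

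**Figure D5:**
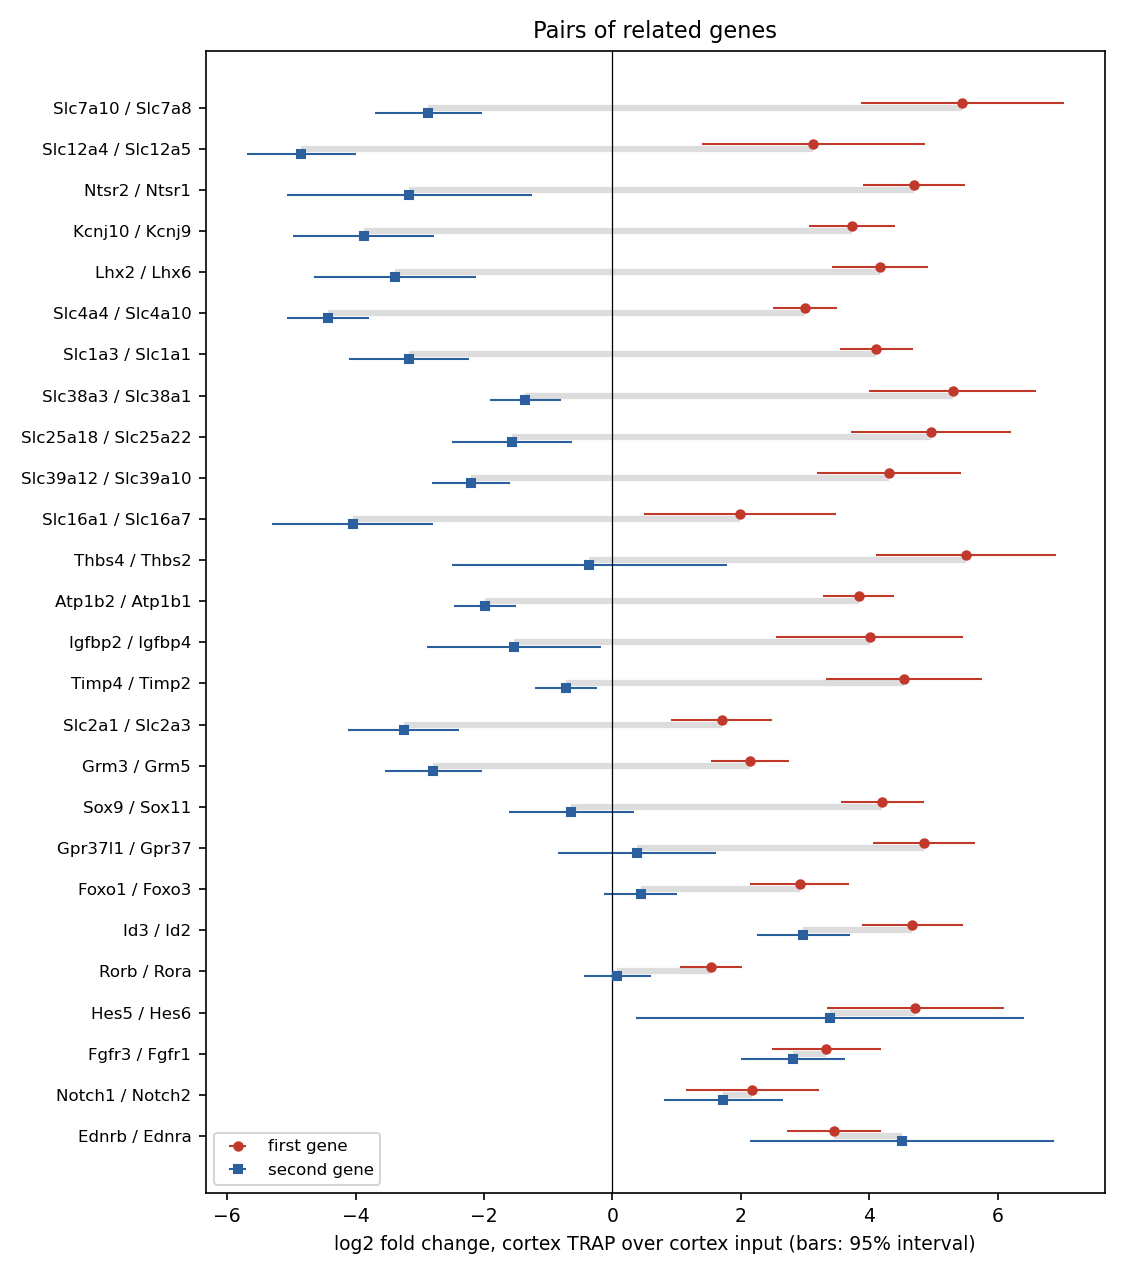
Log2 fold change of cortex TRAP over cortex input with its 95% interval for 26 pairs of related genes, sorted by the difference within the pair. Red points are the first gene and blue squares the second; the widest gap is between Slc7a10 and Slc7a8.

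Levels per kilobase set genes side by side. They take the longest annotated transcript of each gene, whichever form the cells use, so the order depends on the annotation. Among the receptors tested, the 6 highest in cortex TRAP were Ntrk2 (278 normalized CPM per kilobase), S1pr1 (164), Gpr37l1, Ntsr2, Gabbr1 and Grm3 (56.1). Only Ntrk2 and Gabbr1 were also among the 6 highest in cortex input. Among secreted factors, Dbi (2911), Cst3 (2530.5), Sparcl1, Selenop, Clu and Sparc led in cortex TRAP, while cortex input was led by cholecystokinin (Cck, 315) and somatostatin (Sst, 129), named after their values were seen. Among transcription factors no gene was in the top 6 of both groups: Lhx2 (219), Nr1d1 and Id3 led cortex TRAP, and Mef2c (132) and Egr1 led cortex input. Among transporters, Slc1a2 led cortex TRAP (1982) and Atp1b1, a sodium pump subunit, led cortex input (237).

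Transcript length moved with these changes. The median length was 3042.5 bases in genes that rose, 4720 in genes that fell and 3274 in the rest. With genes sorted by length into 5 equal groups, 21.6% rose and 7.34% fell in the group of the shortest transcripts, against 11.5% and 38% in that of the longest. With an offset for transcript length, 2099 genes rose and 2191 fell, and the values that moved by over 1.5-fold are given in brackets beside the genes above.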

How the data were processed

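RNA was measured in 12 mouse libraries, of which the 3 cortex TRAP and 3 cortex input libraries are compared here. The deposited values are HTSeq counts of reads per Ensembl gene, 1 file per library, as deposited by the authors and not normalized, per the submitters' processing notes and the files. These notes name Trimmomatic 0.32, Bowtie2 and STAR. What genome build, gene annotation and strandedness the counting used is not given in the sources read here, so genes that overlap, lie antisense or have near-identical copies are uncertain. Rows that name no gene, 31.9% to 55.5% of all counts in these 6 libraries, were left out, and 4918113 to 12168436 gene counts per library remained. Genes of the mitochondrial chromosome held 44.8% to 50.2% of gene counts in cortex input and 1.03% to 1.28% in cortex TRAP.

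Counts were tested with edgeR 4.0.16 (limma 3.58.1, R 4.3.3): filterByExpr with a minimum count of 10, TMM scaling, 1 mean per group over all 12 libraries, the quasi-likelihood test and Benjamini-Hochberg adjustment over all 13364 genes tested. The scripts were tested on simulated data with known changes. Symbols were matched by Ensembl identifier, and 40254 of 41388 identifiers had a symbol. Transcript length and GC content are those of the longest transcript of each gene in the GENCODE annotation of GRCm38. The bound for a gene with 0 counts in a group takes 3 counts over that group and covers counting error only. The members, the 61 gene lists and the 30 pairs were chosen with earlier results of these data known. Genes are named by a fixed rule: the 15 largest rises and falls at a mean of 3 log2 CPM or more, the 3 with the smallest p in each direction per list, all markers and all pairs; others are said to have been named after their values were seen, and some genes are not reported here. Alternatives were RLE scaling, no filter, DESeq2 1.42.0, both cortex groups alone, a replicate block, no mitochondrial genes, offsets for transcript length or GC content, a minimum fold of 1.5, and each library left out in turn.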

Additional observations from a re-analysis of the deposited data

How the results depend on the processing

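The counts of genes called, higher and lower stayed within 1.5 times their values under all 16 alternatives: 4290 to 5347 called among those that used all libraries and no minimum fold, and 3923 at a minimum fold of 1.5. Leaving out each cortex library in turn gave 3859 to 4399 called, 1459 to 1698 higher and 2227 to 2708 lower, with fewer libraries in each fit, and the median over all genes, 0.05 with every library, became -0.15, -0.12 and -0.16 on leaving out cortex TRAP replicate 1, 2 or 3. Same-numbered libraries of both groups deviated together at r = 0.0586, 0.0209 and 0.0431 across genes, none over 0.1, so the shared numbers were not taken as pairs, although each library correlated best with its own number. With the replicate number as a block, 4770 genes were called, 2091 higher and 2679 lower, and with both groups alone and the block 5050, 2369 higher and 2681 lower. Under the block Hes1 and Tmem63b lost their calls and Hes6 was called at 4.56. The sign changed with the length correction for Bmpr2, at 0.45, Fzd3, at 0.31, and Thbs2, at 0.18. Over the 6 fits that each left out a library, the values ran from -0.33 to 3.66 for Tmem63b, from -0.27 to 0.46 for Rbpj, from -0.98 to 0.42 for Thbs2 and from -0.26 to 0.13 for Rora. Of these genes Bmpr2, Fzd3 and Tmem63b were called with all libraries, and the cause was not tested. Of 152 list counts under 16 alternatives, 2272 of the values stayed within 1.5 times and 160 did not, among them the falls of TRP, Piezo and purine-gated channels, 7 against 11 with both groups alone and the block. Depth limited genes of low counts, such as Shh, with 47 counts over the 3 libraries of cortex input and 2 over those of cortex TRAP.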

Other observations

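Immunoglobulin genes, which are in none of the lists and were named after their values were seen, went in opposite directions. Ighg1, the constant region of an IgG heavy chain, had 0 counts in every cortex input library and 36, 171 and 8 counts in cortex TRAP. Igkc, the kappa light chain constant region, had 1, 1 and 0 counts in cortex input and 31, 38 and 15 in cortex TRAP. Ighm, the constant region of IgM, had 27.7, 14.6 and 16.7 normalized CPM in cortex input against 2.15, 2.32 and 0.896 in cortex TRAP and fell by 3.46 ± 0.54 (-4.10 corrected for transcript length).

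Mural cell markers did not move together. Pdgfrb, a receptor of pericytes, had 7.19, 13.2 and 23.1 normalized CPM in cortex TRAP and 0.831, 1.13 and 0.306 in cortex input and rose by 4.24 ± 0.74 (edgeR adjusted p = 0.000155; 3.59 without cortex TRAP replicate 3). In the same list the change of Abcc9, a channel regulator of pericytes, was -5.66 ± 1.66 (-4.56 without cortex input replicate 3, not called, and -7.22 without cortex TRAP replicate 1), and that of Rgs5, a regulator of G protein signalling, was -1.29 ± 0.48, called in the fit with all libraries and lost in 6 of the 16 alternatives.

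Olfr287, a gene of the olfactory receptor family, had 0.942, 0.798 and 0.122 normalized CPM in cortex input and 39.8, 32.8 and 25.5 in cortex TRAP and rose by 5.69 ± 0.71 (edgeR adjusted p = 3.71e-06; 5.10 corrected for transcript length; 5.07 without cortex input replicate 3). Gm10561, annotated as antisense, had 1.16, 0.864 and 0.428 normalized CPM in cortex input against 39.4, 65.01 and 16.7 in cortex TRAP and rose by 5.60 ± 0.79 (4.93 without cortex TRAP replicate 2). Its reads cannot be told from those of a gene on the other strand, since the strand setting is not known.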
